A study of Homo sapiens with 4 samples.

Results

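The mRNAs of 10 SR splicing factors (SRSF1, SRSF2, SRSF3, SRSF4, SRSF5, SRSF6, SRSF7, SRSF9, SRSF10 and SRSF11) were followed in the RNA that came down with KIAA1429 from HCCLM3 cells, a human hepatocellular carcinoma line. Members were picked out of the files by gene name. They were 10 of 13300 listed gene names and 37 of 34975 listed transcripts. Of the 37 transcripts, 28 were of the type protein_coding, out of 27475 in all, and 9 of the type processed_transcript, out of 5967. RNA immunoprecipitation sequencing (RIP-seq) was done with an antibody against KIAA1429 in 2 libraries (KIAA1429 RIP) and with normal IgG, which gives the background of the beads, in 2 libraries (IgG RIP). All 4 libraries came from HCCLM3 cells, and the labels name no other treatment or genotype. The labels do not say whether the replicates were separate cultures, so p-values measure only the spread between these libraries, which may be technical. No library of unprecipitated RNA was used here, so a level in a precipitate cannot be set against the level in the cell.

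KIAA1429 is a large subunit of the complex that writes N6-methyladenosine (m6A) on mRNA. SR proteins carry RNA recognition motifs and a tail rich in arginine and serine, bind exonic enhancers in pre-mRNA and help the spliceosome choose splice sites. Kinases phosphorylate the tail and a transportin carries the proteins into the nucleus. Many SR genes are known to control their own mRNA through alternative splicing of exons that bring in early stop codons, so which transcript of a gene is listed matters as much as its total.

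Sequences that tell pairs of transcripts of the same gene apart are shown because several results below turn on single transcripts. SRSF11-202, a minor transcript, is included only as the contrast to SRSF11-204, and SRSF10-204 only as the contrast to SRSF10-203. Each line gives 30 bases of the spliced RNA, written as DNA 5′ to 3′ on the gene's strand from GRCh37, with 15 bases before the point where the transcripts part. The capitals mark the first 6 bases after that point. SRSF10-203 and SRSF10-204 also use different acceptors at an earlier junction, which is not printed. SRSF1-205 reads on through an intron of 200 bases that SRSF1-201 removes on chromosome 17, SRSF5-201 and SRSF5-205 use different acceptors after the same exon on chromosome 14, SRSF10-203 and SRSF10-204 join different downstream exons on chromosome 1, and SRSF11-202 and SRSF11-204 use different acceptors on chromosome 1.
SRSF1-201: tttagatctcatgagGGAGAAactgcctac
SRSF1-205: tttagatctcatgagGTAGGTtatacacgt
SRSF5-201: ggctttggttttgtgGAATTTgaggatcca
SRSF5-205: ggctttggttttgtgGATCCAagggatgca
SRSF10-203: ttccgacaatgatagATTCAAacaccgaaa
SRSF10-204: ttccgacaatgatagACCAAActgcagctg
SRSF11-202: tagaagtgcaagcagAGAGAGacgacgacg
SRSF11-204: tagaagtgcaagcagTTTGCAcatttgtga

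The deposited values were FPKM, fragments scaled by transcript length and by library. The depth of the libraries is unknown, so no counting error is given. FPKM over all listed transcripts summed to between 295573 and 340300. The 10 SR genes together summed to 248.8 and 150.3 FPKM in IgG RIP, against 297.1 and 268.9 FPKM in KIAA1429 RIP, replicate 1 before replicate 2 here and in every series of values that follows. IgG RIP replicate 2 stood below the other libraries, and 9 of the 10 members were lower there than in IgG RIP replicate 1, beside 58.0% of all tested gene totals. In KIAA1429 RIP 7 of the 10 were lower in replicate 2, beside 53.1%. Albumin and alpha-fetoprotein, defining products of hepatocytes and hepatoma cells, were listed in every library, at 53.5 to 76.3 and 99.1 to 127.8 FPKM. The epithelial keratins KRT8 and KRT18 were also listed in every library, whereas CDH1 was not listed. The hepatocyte marker HNF4A was at 0.305 to 1.11 FPKM, a mean of 0.692 FPKM. Of 8 markers of other cell types, 2 (CD68 and ACTA2) were listed, at 28.7 to 72.2 and 18.2 to 37.1 FPKM.

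Of the 10 gene totals, the sums of FPKM over the listed transcripts of a gene, 8 had a higher mean in KIAA1429 RIP and 2 (SRSF2 and SRSF4) a lower one. In 4 members (SRSF1, SRSF3, SRSF9 and SRSF10) both KIAA1429 RIP libraries lay above both IgG RIP libraries, beside 16.6% of all 11361 gene totals tested. No member lay wholly lower, beside 15.2%. With each library scaled to the same sum, SRSF1 and SRSF9 overlapped and only SRSF3 and SRSF10 of the 10 stayed wholly higher, beside 11.2% of all gene totals so scaled. That scaling moved the median log2 fold change of all gene totals from 0.02 to -0.12. No member was called by limma at a log2 fold change beyond 1 and a Benjamini-Hochberg adjusted p under 0.05, and 0% of all gene totals were. At an unadjusted limma p under 0.05 there was 1 member, SRSF10, on the higher side, beside 3.17% of gene totals on that side and 1.43% on the lower.

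**Figure D1:**
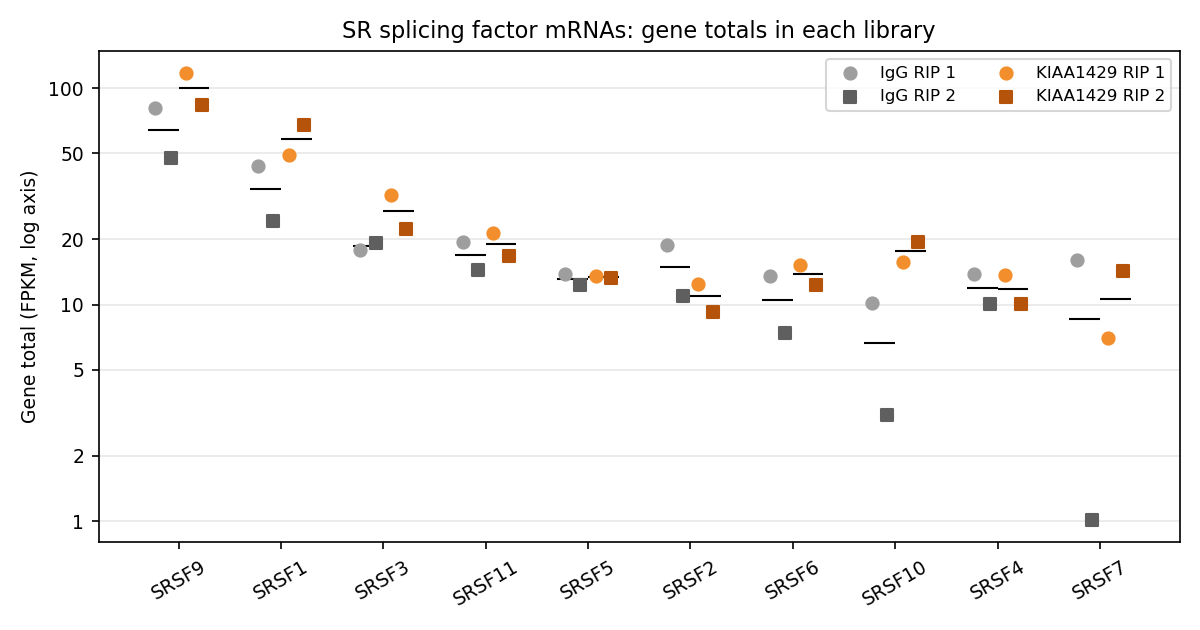
Gene totals of the 10 SR factors in FPKM on a log axis, with 1 point for each library and a short line at each group's mean, ordered by the mean of the 4 libraries. SRSF9 lies highest, the 2 KIAA1429 RIP points of SRSF10 lie above its IgG RIP points, and SRSF7 falls to 1.01 FPKM in IgG RIP replicate 2.

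SRSF10, a splicing regulator that acts as a repressor when dephosphorylated, differed most between the groups among the 10 by ratio of means. SRSF10 (ENSG00000188529.14_2, chr1:24291294-24307417, minus strand, GRCh37) was at 10.2 and 3.09 FPKM in IgG RIP and at 15.7 and 19.4 FPKM in KIAA1429 RIP. The groups did not overlap, and the lowest value was IgG RIP replicate 2. The means were 6.64 ± 5.01 and 17.6 ± 2.62 FPKM (SD, n = 2 each), a ratio of 2.65. The log2 fold change on the log2(FPKM + 1) scale, used for every fold change below, was 1.45 ± 0.53 (SE, limma unadjusted p = 0.030, adjusted p = 0.997). With each library left out in turn it ranged from 0.73, without IgG RIP replicate 2, to 2.18, without IgG RIP replicate 1. SRSF10 was last of the 10 members by mean FPKM in IgG RIP and 5th in KIAA1429 RIP.

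SRSF9 and SRSF1, both classical SR proteins that bind purine-rich exonic enhancers, had the highest levels. SRSF9 (ENSG00000111786.8_2, chr12:120899471-120907596, minus strand) was at 81.1 and 47.5 FPKM in IgG RIP and at 117.2 and 83.8 FPKM in KIAA1429 RIP. The groups did not overlap, with IgG RIP replicate 1 only slightly below the lower KIAA1429 RIP library. The log2 fold change was 0.67 ± 0.36 (SE, limma unadjusted p = 0.11) and ranged from 0.29, without IgG RIP replicate 2, to 1.05, without IgG RIP replicate 1. Without KIAA1429 RIP replicate 1 it was 0.43. GATC lies on the opposite strand, shares 491 exonic bases with SRSF9, and was at 10.7, 9.45, 12.4 and 12.3 FPKM in the same order of libraries. Whether strand was used in counting is not given in the sources used here.

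SRSF1 (ENSG00000136450.12_3, chr17:56080721-56084707, minus strand) was at 43.8 and 24.2 FPKM in IgG RIP and at 48.9 and 67.5 FPKM in KIAA1429 RIP. The groups did not overlap. The log2 fold change was 0.80 ± 0.38 (SE, limma unadjusted p = 0.072) and ranged from 0.38, without IgG RIP replicate 2, to 1.21, without IgG RIP replicate 1. SRSF9 was above SRSF1 within each of the 4 libraries, although their ranges over libraries overlapped.

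SRSF3, the smallest of the classical SR proteins and also a factor in mRNA export and 3′ end processing, was at 17.9 and 19.3 FPKM in IgG RIP and at 32.0 and 22.3 FPKM in KIAA1429 RIP. Its gene (ENSG00000112081.16_2) lies at chr6:36562145-36573377 on the plus strand. The groups did not overlap, and IgG RIP replicate 2 was here the higher of the IgG RIP libraries. The log2 fold change was 0.50 ± 0.33 (SE, limma unadjusted p = 0.17). It ranged from 0.25, without KIAA1429 RIP replicate 1, to 0.75, without KIAA1429 RIP replicate 2.

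In the other 6 members the groups overlapped. SRSF7, which works with SRSF3 in export and polyadenylation, was at 16.1 and 1.01 FPKM in IgG RIP and at 7.02 and 14.2 FPKM in KIAA1429 RIP. Its IgG RIP replicates differed by 15.9-fold, the widest gap among the members, and its log2 fold change of 0.91 turned to -0.63 without IgG RIP replicate 2. SRSF2, an SR protein that also acts in transcription elongation, was at 18.9 and 10.9 FPKM in IgG RIP and at 12.5 and 9.28 FPKM in KIAA1429 RIP. MFSD11 shares 732 exonic bases with SRSF2 on the opposite strand and was at 9.67 and 13.5 FPKM in IgG RIP and at 4.88 and 8.20 FPKM in KIAA1429 RIP.

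SRSF6, an exon-inclusion factor whose 1 listed transcript is SRSF6-201, was at 13.6 and 7.40 FPKM in IgG RIP and at 15.2 and 12.3 FPKM in KIAA1429 RIP. SRSF11, an SR-related protein, was at 19.5 and 14.5 FPKM in IgG RIP and at 21.4 and 16.8 FPKM in KIAA1429 RIP. In both genes the IgG RIP replicates lay further apart than the group means. SRSF4 was at 13.8 and 10.1 FPKM in IgG RIP and at 13.6 and 10.01 FPKM in KIAA1429 RIP, a log2 fold change of -0.01 ± 0.90 (95% interval, limma). SRSF5 was at 13.8 and 12.3 FPKM in IgG RIP and at 13.5 and 13.2 FPKM in KIAA1429 RIP, a log2 fold change of 0.03 ± 0.80 (95% interval, limma). For SRSF4 and SRSF5 the interval still leaves room for changes of either sign. By mean of the 4 libraries the order was SRSF9, SRSF1, SRSF3, SRSF11, SRSF5, SRSF2, SRSF6, SRSF10, SRSF4 and SRSF7. The ranges over libraries of neighbours in that order overlapped, except that SRSF11 (lowest 14.5 FPKM) stayed above SRSF5 (highest 13.8 FPKM).

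The remaining genes lie, on GRCh37, at chr17:74730197-74733456 (SRSF2, minus strand), chr1:29474255-29508499 (SRSF4, minus), chr14:70233810-70238708 (SRSF5, plus), chr20:42086568-42092887 (SRSF6, plus), chr2:38970741-38978636 (SRSF7, minus) and chr1:70671365-70718735 (SRSF11, plus).

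**Figure D2:**
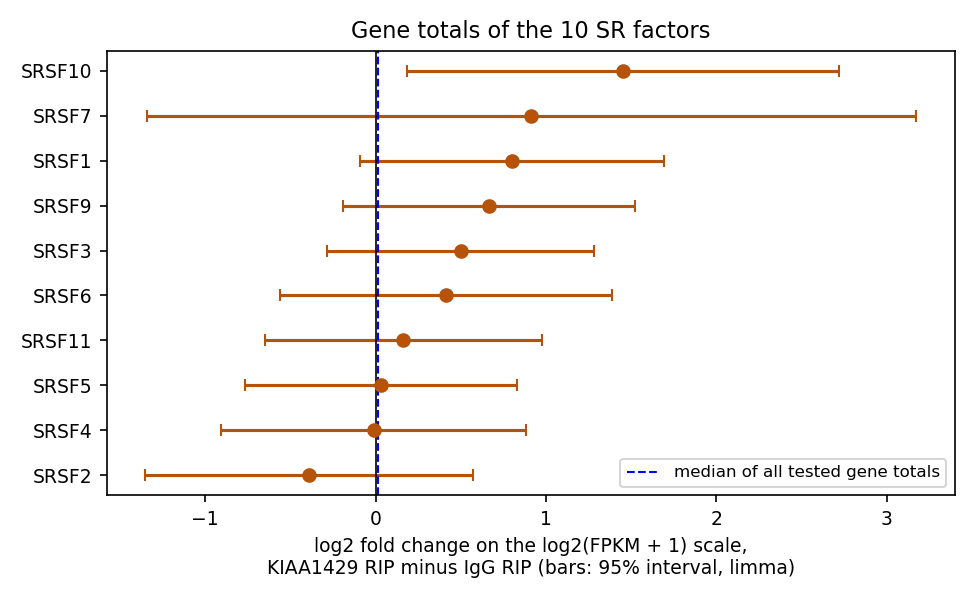
Log2 fold change of each gene total on the log2(FPKM + 1) scale, KIAA1429 RIP minus IgG RIP, with bars for the 95% interval from limma and a dashed line at the median of all tested gene totals (0.02). The interval of SRSF10 lies above 0 before adjustment, and the intervals of the other 9 members include 0.

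Single transcripts were compared in the same way. Of the 37 member transcripts, 28 passed a mean of 1 FPKM and were tested. Among these, 7 lay wholly higher in KIAA1429 RIP, beside 15.2% of the 23375 transcripts tested, and 3 wholly lower, beside 14.5%. At least 2-fold apart in all libraries were 3 on the higher side, beside 5.18% of transcripts, and 0 on the lower side, beside 4.91%. An unadjusted limma p under 0.05 was reached by 1 member transcript, SRSF5-201, which was higher, beside 3.03% of transcripts higher and 2.33% lower. SRSF5-201 was at 0 in IgG RIP, so it passed the filter only through KIAA1429 RIP and could only differ upwards. None passed the adjusted call, and 0% of all transcripts did.

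Transcripts listed at 0 were counted by group. Of the 37 member transcripts, 11 were listed at 0 in both IgG RIP libraries, beside 13.8% of all 34975 transcripts, and 0 in both KIAA1429 RIP libraries, beside 14%. By library, 13 were at 0 in each IgG RIP library, against 5 and 6 in KIAA1429 RIP. Of the 11, only SRSF5-201 and SRSF11-205 were above 0 in both KIAA1429 RIP libraries, and the other 9 were above 0 in 1 library. Since a transcript was listed here only if a group mean reached at least 0.500 FPKM, each of the 11 had to be above 0 in KIAA1429 RIP.

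The SRSF5 total overlapped between the groups, while 2 of its 3 listed transcripts did not. SRSF5-201 (ENST00000394366, chr14:70233810-70238690) was listed at 0 in both IgG RIP libraries and was at 5.56 and 6.15 FPKM in KIAA1429 RIP (limma unadjusted p = 0.0083, adjusted p = 0.716). This transcript passed the filter only through KIAA1429 RIP and could only differ upwards, so the p-value gives no support for a difference. SRSF5-201 made up 41.1% and 46.5% of the SRSF5 total in KIAA1429 RIP. SRSF5-205, whose acceptor is the other one printed above, was at 4.87 and 8.23 FPKM in IgG RIP and at 3.05 and 3.11 FPKM in KIAA1429 RIP, wholly lower. SRSF5-217, the SRSF5 transcript with the highest mean, was at 8.96 and 4.11 FPKM in IgG RIP and at 4.91 and 3.96 FPKM in KIAA1429 RIP, with overlap. SRSF5-201 and SRSF5-217 have the same annotated coding length, 816 bases, against 807 for SRSF5-205. The acceptor of SRSF5-217 was not compared, so the printed bases may not tell it from SRSF5-201. How reads were shared out among transcripts of a gene is not given in the sources used here.

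In SRSF1 a different transcript led in KIAA1429 RIP replicate 2 than in the other libraries. SRSF1-205, which reads through the 200-base intron, was at 38.0 and 15.7 FPKM in IgG RIP and at 32.3 and 13.5 FPKM in KIAA1429 RIP. SRSF1-201, which splices it out, was at 5.80 and 8.47 FPKM in IgG RIP and at 9.15 and 54.0 FPKM in KIAA1429 RIP. SRSF1-201 was 80.0% of the total in KIAA1429 RIP replicate 2 and 13.2% to 35.0% in the other libraries. The groups did not overlap, with 1 library far above the rest. The annotated read-through gene ENSG00000266086 shares 1890 exonic bases with SRSF1 on the same strand and was not listed. SRSF1-203, the processed row of SRSF1, was at 2.13 FPKM in KIAA1429 RIP replicate 1 and listed at 0 in the other libraries.

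SRSF2 was led by SRSF2-202 in all libraries but KIAA1429 RIP replicate 1. SRSF2-202 was at 17.4 and 7.80 FPKM in IgG RIP and at 2.88 and 5.13 FPKM in KIAA1429 RIP, wholly lower, with a log2 fold change of -1.38 ± 0.58 (SE, limma unadjusted p = 0.065). Without IgG RIP replicate 1 it was -0.85 (limma unadjusted p = 0.25). SRSF2-203, with the same coding length of 663 bases, was at 1.57 and 3.15 FPKM in IgG RIP and at 9.62 and 0.319 FPKM in KIAA1429 RIP. The 2 KIAA1429 RIP libraries were the highest and the lowest of the 4 for SRSF2-203.

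SRSF9 and SRSF3 were each led by 1 transcript in every library. SRSF9-201 held 88.3% to 96.8% of the SRSF9 total, at 78.1 and 42.0 FPKM in IgG RIP and at 113.4 and 80.9 FPKM in KIAA1429 RIP. SRSF3-202 held 71.4% to 100% of the SRSF3 total, at 17.9 and 13.8 FPKM in IgG RIP and at 31.5 and 22.3 FPKM in KIAA1429 RIP. Both were wholly higher in KIAA1429 RIP. SRSF4-201 was at 13.8, 10.1, 10.3 and 10.01 FPKM over the 4 libraries, and SRSF7-201 at 9.12, 1.01, 1.61 and 8.72 FPKM. The leading transcript was the same in all libraries for 4 of the 10 members.

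Rows of the type processed_transcript, spliced RNAs without an annotated coding sequence, were listed for 3 members (SRSF1, SRSF10 and SRSF11). In SRSF10 the coding rows summed to 8.52 and 2.94 FPKM in IgG RIP and to 13.7 and 15.3 FPKM in KIAA1429 RIP. Its processed rows summed to 1.66 and 0.147 FPKM in IgG RIP and to 2.07 and 4.12 FPKM in KIAA1429 RIP. Both kinds of row were thus wholly higher, and the processed share ran from 4.75% to 21.2% with IgG RIP replicate 2 lowest. The log2 ratio of processed to coding rows differed by -0.15 ± 0.98 (SE, limma unadjusted p = 0.88, adjusted p = 0.996), and its sign turned with the pseudocount and with the scaling.

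SRSF10-209, the processed row of SRSF10 that was at least 2-fold apart, was at 0.454 and 0.0735 FPKM in IgG RIP and at 1.82 and 1.52 FPKM in KIAA1429 RIP. Its mean was under 1 FPKM, so it was not tested. SRSF10-203 was the coding transcript with the highest mean. It was at 2.51 and 1.42 FPKM in IgG RIP and at 5.78 and 2.73 FPKM in KIAA1429 RIP. The transcript was wholly higher by a narrow gap (log2 fold change 0.79 ± 0.62, SE, limma unadjusted p = 0.26). SRSF10-207, at 6.18 FPKM, was listed above 0 only in KIAA1429 RIP replicate 2, as were SRSF10-211 and SRSF10-201. These 3 rows made up 31.8%, 14.9% and 12.8% of the SRSF10 total in that library.

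SRSF11 had the largest processed share of the members. Its coding rows summed to 9.33 and 7.70 FPKM in IgG RIP and to 9.46 and 11.3 FPKM in KIAA1429 RIP, and its processed rows to 10.2 and 6.77 FPKM and to 11.9 and 5.51 FPKM. The coding sum was wholly higher by a narrow gap and the processed sum overlapped. Processed rows took 52.1% and 46.8% of the total in IgG RIP, against 55.7% and 32.9% in KIAA1429 RIP, and the log2 ratio differed by -0.28 ± 1.05 (SE, limma unadjusted p = 0.80). No ratio was called among the 1979 genes tested, 0%.

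Single SRSF11 rows lay wholly higher or wholly lower. SRSF11-204, coding, was at 1.29 and 0.721 FPKM in IgG RIP and at 4.91 and 3.15 FPKM in KIAA1429 RIP (log2 fold change 1.32 ± 0.62, SE, limma unadjusted p = 0.089). SRSF11-205, processed, was listed at 0 in both IgG RIP libraries and was at 2.41 and 2.71 FPKM in KIAA1429 RIP. Together with SRSF5-201 these are the 3 tested member transcripts at least 2-fold apart, of which SRSF5-201 and SRSF11-205 passed the filter only through KIAA1429 RIP and could only be higher. SRSF11-201 was at 5.84 and 1.90 FPKM in IgG RIP, listed at 0 in KIAA1429 RIP replicate 1 and at 1.23 FPKM in replicate 2. The processed row SRSF11-209 was at 6.18, 3.38, 3.45 and 0.717 FPKM, with overlap. SRSF11-203, coding, was at 2.20, 3.84, 3.65 and 3.40 FPKM, also with overlap.

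All 37 listed member transcripts were found by identifier in the GENCODE annotation of GRCh37, 26 with the same span. That annotation gives the members 120 transcripts, of which 28 are of the type nonsense_mediated_decay and 30 retained_intron. None of the 28 was among the 37 listed transcripts. No deposited row of any gene was given either type, so this absence says nothing particular about the SR genes. SRSF11-214, at 2.04 FPKM in KIAA1429 RIP replicate 1 and listed at 0 in the other libraries, was the 1 listed transcript now annotated as retained_intron. The letters GGAC, the core of the motif that carries m6A, were searched on the sense strand of the transcripts. They occurred in 28 of 28 coding member transcripts and in 97.9% of the 26600 matched coding transcripts. Per kilobase the member median was 2.66 against 3.83 over all, and 10 of 28 were above that median. SRSF9-201 had 7.81 matches per kilobase and SRSF3-202 had 1.42. Matches were counted on the annotated sequences, whose span differs from the deposited one for both transcripts. Whether GGAC density went with the level in KIAA1429 RIP was not tested.

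Of 10 genes for kinases and the transportin that act on SR proteins 8 were tested, with a median log2 fold change of -0.30, against 0.46 for the members and 0.02 for all gene totals. Without IgG RIP replicate 2 the member values ran from -0.76 (SRSF2) to 0.73 (SRSF10), and the median of all gene totals was -0.08. SRSF2, SRSF4, SRSF5, SRSF7 and SRSF11 were then negative and the other members positive. By highest mean FPKM, the transportin TNPO3 was at 40.9, 34.3, 35.5 and 36.7 FPKM, and SRPK2, an SR protein kinase, at 28.6, 7.48, 17.3 and 32.0 FPKM. SRPK1, another SR protein kinase, was at 18.0, 0.329, 16.3 and 17.4 FPKM, lowest in IgG RIP replicate 2. Wholly higher was 1 gene (CLK1) and wholly lower were 3 (CLK3, PRPF4B and DYRK1A), beside the 16.6% and 15.2% of all gene totals. The nuclear kinase CLK3 was at 3.98 and 7.71 FPKM in IgG RIP and at 1.13 and 1.14 FPKM in KIAA1429 RIP (limma unadjusted p = 0.020). DYRK1A was at 16.9 and 18.7 FPKM in IgG RIP and at 6.20 and 9.53 FPKM in KIAA1429 RIP (limma unadjusted p = 0.021). Neither was called, with an adjusted p of 0.997 in limma.

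Of 24 SR-like and SR-related genes 23 were tested, with a median log2 fold change of 0.34, 3 wholly higher (SRSF8, RSRC2 and LUC7L3) and 4 wholly lower (SRRM2, SON, PNISR and ACIN1), counts near the 16.6% and 15.2% of all gene totals. The U2 auxiliary factors U2AF1 and U2AF2, highest by mean, were at 78.3, 49.5, 80.2 and 55.4 FPKM and at 70.3, 46.6, 57.5 and 58.5 FPKM. LUC7L3, a U1-associated factor, was at 2.63 and 1.20 FPKM in IgG RIP and at 19.4 and 5.12 FPKM in KIAA1429 RIP (limma unadjusted p = 0.021, adjusted p = 0.997). SRRM2, a scaffold of nuclear speckles, was at 67.4 and 45.0 FPKM in IgG RIP and at 37.4 and 35.8 FPKM in KIAA1429 RIP. Of 20 hnRNP genes, whose proteins often oppose SR proteins at splice sites, 0 were wholly higher and 1 (HNRNPA1) wholly lower, with a median of 0.17. No gene of these lists was called.

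The low values of IgG RIP replicate 2 were shared by other RNA-processing genes. The hnRNP sums were 2104 and 1289 FPKM in IgG RIP, against 2195 and 1482 FPKM in KIAA1429 RIP, and 18 of 20 genes were lower in IgG RIP replicate 2 than in replicate 1. The median log2 difference of IgG RIP replicate 2 from replicate 1 was -0.75 over the members, -0.91 over the hnRNP genes and -0.15 over all gene totals. In KIAA1429 RIP it was -0.31, -0.68 and -0.05. The hepatocyte markers instead summed to 364.6, 404.5, 357.8 and 396.6 FPKM. For SRSF10, SRSF9, SRSF1 and SRSF7 the log2 fold change without IgG RIP replicate 2 is given above. Leaving it out moved the log2 fold change from 0.41 to 0.015 for SRSF6, from -0.39 to -0.76 for SRSF2 and from 0.50 to 0.55 for SRSF3. The source of the low values in IgG RIP replicate 2 was not tested.

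**Figure D3:**
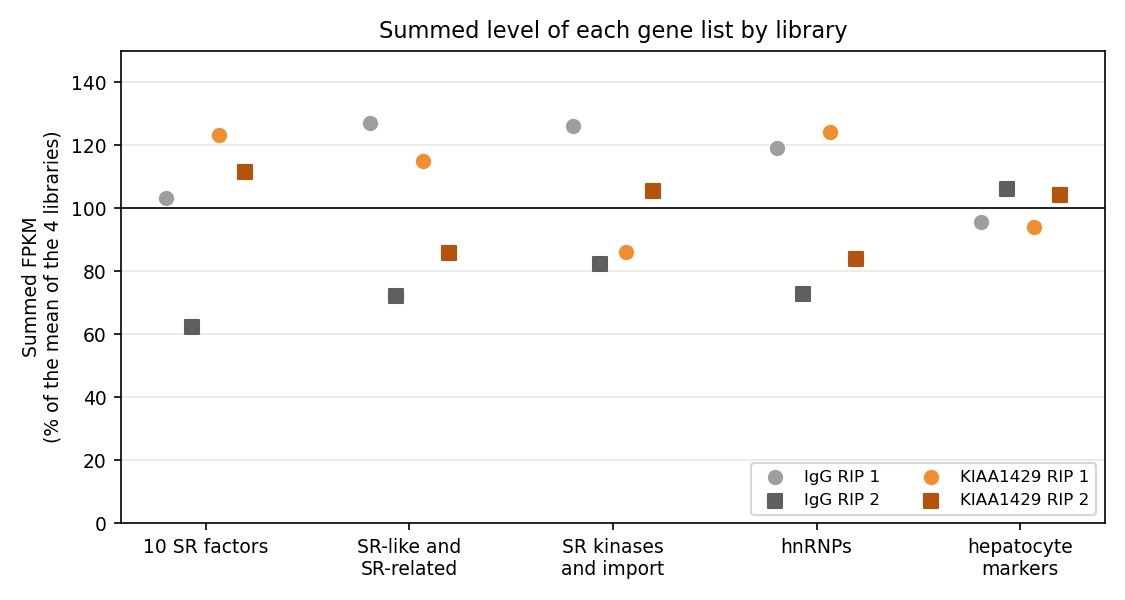
Summed FPKM of each gene list in each library, as a percentage of the mean of its 4 libraries. IgG RIP replicate 2 is at 62.3% for the 10 SR factors, 72.9% for the hnRNPs and 106.2% for the hepatocyte markers.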

How the data were processed

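KIAA1429 RIP and IgG RIP libraries of HCCLM3 cells were measured by RIP-seq (2 libraries each). Groups and replicate numbers follow the labels. The authors isolated poly(A) RNA, sequenced it and deposited FPKM per transcript on GRCh37/hg19. The study's text names HISAT2 as aligner, and the submitters' processing notes name Bowtie2 2.1.0. The tool that estimated FPKM is not given in the sources used here.

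FPKM were summed per gene name. Features with a mean of at least 1 FPKM entered a two-sided limma fit (version 3.58.1, R 4.3.3, eBayes with trend) after log2(FPKM + 1). P-values were adjusted by Benjamini-Hochberg over all features tested. A call needed an adjusted p under 0.05 and a log2 fold change larger than 1 in size. The values are not counts, so no count test was run. Tables were handled in Python 3.11.15 with pandas 2.3.3 and numpy 2.4.6, and plots drawn with matplotlib 3.10.9.

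The members and gene lists were chosen with earlier results of these data known. By rule, the text names each member's coding and processed transcript with the highest mean, those at least 2-fold apart in all libraries, and up to 3 genes of each list with the highest mean. Other transcripts and list genes were named after their values were seen. Alternatives were other pseudocounts, filters and scalings, coding rows alone, limma without trend, the replicate number as a block, and each library left out. Annotation was GENCODE on GRCh37. An exact 0 is described as listed at 0. Because 11 annotated pseudogenes carry member names, reads from near-identical copies may be uncertain.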

Additional observations from a re-analysis of the deposited data

How the results depend on the processing

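No member gene total, transcript or ratio was called in any fit. Over 26 single fold changes and 289 alternative values, 271 kept their direction. Of these alternatives the other filters, the fit without trend and the replicate block leave a fold change unchanged. They could not turn its direction, so the count is not a measure of stability. With the replicate block 13 gene totals were called, none a member (SRSF10 adjusted p = 0.287, limma), against 0 without it. Over all features the same-numbered libraries shared little beyond the number (correlation of deviations 0.19 over gene totals and 0.03 over transcripts), with only 2 pairs. For the hnRNP genes and the members replicate 2 was mostly the lower library whichever antibody was used. With IgG this held for 18 of 20 hnRNP genes and 9 of 10 members, and with the KIAA1429 antibody for 17 and 7. Under the block the unadjusted limma p was 0.0059 for SRSF10, 0.021 for SRSF9 and 0.026 for SRSF1. The adjusted p was 0.417 for SRSF9 and 0.454 for SRSF1, and the other members had an unadjusted p above 0.05. Of the members, 2 lay wholly higher after scaling to a common sum, against 4, and as single transcripts 7 lay wholly higher and 3 wholly lower. Median scaling (5 wholly higher, beside 16.8% of all gene totals so scaled) and leaving out libraries were added to this count after seeing the data. With 1 library left out, 4 to 8 members lay wholly higher and 0 to 4 wholly lower, beside 29.4% to 40.2% and 29.3% to 37.8% of all gene totals. Without IgG RIP replicate 1 the higher count was 8, and the lower count was 4 without IgG RIP replicate 2 and 2 without KIAA1429 RIP replicate 1.

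The reversed fold changes were all uncalled. With a library left out, the log2 fold change ranged from -0.040 to 0.37 for SRSF11, -0.22 to 0.20 for SRSF4, -0.047 to 0.11 for SRSF5 and -0.63 to 2.46 for SRSF7. For transcripts it ranged from -0.83 to 0.39 for SRSF1-205, -0.10 to 0.50 for SRSF11-203, -0.41 to 0.014 for SRSF4-201, -0.88 to 0.083 for SRSF5-217 and -1.01 to 1.33 for SRSF7-201. The processed to coding ratio ranged from -0.45 to 0.14 for SRSF10 and -0.89 to 0.33 for SRSF11. Scaling to a common sum gave -0.11 for SRSF5 and 0.32 for the SRSF10 ratio, which was 0.69 with a pseudocount of 0.1. The cause was not tested. With 2 libraries a group and unknown depth, small differences were not detectable, and large ones were not called in the main fits either. SRSF10, at a ratio of means of 2.65, had an adjusted p of 0.997 (limma). The lack of calls therefore does not show a lack of differences.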
